A study of Mus musculus with 6 samples.

Results

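Genes of fatty acid oxidation, uptake and lipolysis were followed in RNA of mouse small-intestinal group 3 innate lymphoid cells (ILC3s), tissue-resident lymphocytes of mucosal surfaces that carry no antigen receptor. The module holds 31 genes, chosen by symbol for their enzyme step and matched by gene identifier, out of 55401 identifiers in the deposited count table. All 31 were found and all 31 passed the filter on low counts, which left 18253 genes tested. The comparison was of 3 libraries labelled PEox with 3 libraries labelled Vehicle. Both groups are labelled as wild-type ILC3s of the small-intestinal lamina propria that had been treated beforehand. PEox is not explained in the labels; ferroptosis research, the study of cell death by lipid peroxidation, uses this abbreviation for oxidised phosphatidylethanolamine. Dose, exposure time, mouse age and whether cells or animals were treated have no entry in the labels. The protocol text describes sorted EpCAM+CD45- epithelial cells of pups, whereas the cell type label names ILC3s. Whether each library stands for its own animal is not stated, so the p-values reflect variation among these 6 libraries and that variation may be technical.

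Long-chain fatty acids enter cells with the help of CD36 and are carried in the cytosol by fatty acid binding proteins, or are released inside the cell from triglycerides by lipases. Activated as acyl-CoA, they cross the inner mitochondrial membrane as carnitine esters. In the matrix each turn of beta-oxidation runs through a dehydrogenase, a hydratase, a hydroxyacyl dehydrogenase and a thiolase. Electrons from the acyl-CoA dehydrogenases pass over the electron transfer flavoprotein to ubiquinone. Very long and branched chains are first shortened in peroxisomes. In bulk RNA, fewer cells of a type and less RNA per cell cannot be told apart.

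Library totals ran from 56252806 to 57532484 counts in PEox and from 59524577 to 66849230 counts in Vehicle. Levels below are in CPM, counts scaled to library size with TMM factors, and log2 fold changes are PEox over Vehicle with their standard error. The summed CPM of 16 ILC3 markers was 8943 ± 27.4 in PEox and 15268 ± 133 in Vehicle (SD, n = 3 each). Of these 16 genes 3 were higher in PEox, 8 were lower and 5 did not pass the test. The most abundant was Il22, at 2511 CPM in PEox and 6720 CPM in Vehicle. For 16 epithelial markers the sum was 77.2 ± 1.26 CPM in PEox and 115.4 ± 7.63 CPM in Vehicle, with Epcam on top (31.9 CPM in PEox and 52.1 CPM in Vehicle), Apoa4 and Alpi at 0 and 9 genes under 1 CPM. The libraries thus carried the markers of their cell type label. The sum of 12 B and plasma cell markers was 47.4 ± 4.13 CPM in PEox and 317.8 ± 10.2 CPM in Vehicle, with all 12 lower and Cd79b on top (24.1 CPM in PEox and 105 CPM in Vehicle), and that of 11 erythroid markers was 5468 ± 344 CPM in PEox and 2777 ± 23.5 CPM in Vehicle, with 5 of 9 tested genes higher and Hba-a1 on top (2203 CPM in PEox and 1144 CPM in Vehicle). Markers of mast cells and basophils summed to 23.0 ± 2.98 CPM in PEox and 158.3 ± 3.20 CPM in Vehicle, and those of stromal cells to 297.5 ± 10.5 CPM in PEox and 192.6 ± 3.31 CPM in Vehicle. Marker sums of other cell types therefore moved with the groups, and their part in the results below was not tested.

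The module did not move as a whole: 3 of 4 genes of the carnitine shuttle were higher in PEox, 2 of 3 genes of uptake and binding and 2 of 3 auxiliary enzymes were lower, and 4 of the 5 genes from the hydratase to the thiolase did not pass the test. Of the 31 genes 15 changed, at an edgeR adjusted p under 0.05 over all 18253 genes. Over all genes 37.1% were called. Of the module 7 genes were higher (22.6%), against 18.3% of all genes, and 8 were lower (25.8%), against 18.8% of all genes. In 17 of the 31 genes the CPM of the 2 groups did not overlap, which was so for 50.6% of all genes. The median log2 fold change was -0.09 over the module and 0.00074 over all genes. Genes that passed the test and differed by at least 2-fold made up 9.68% of the module and 10.7% of all genes. With scaling by library size alone, the median over all genes moved to 0.14 and the calls over all genes shifted to 4411 higher and 2715 lower, against 3337 higher and 3438 lower with TMM.

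**Figure D1:**
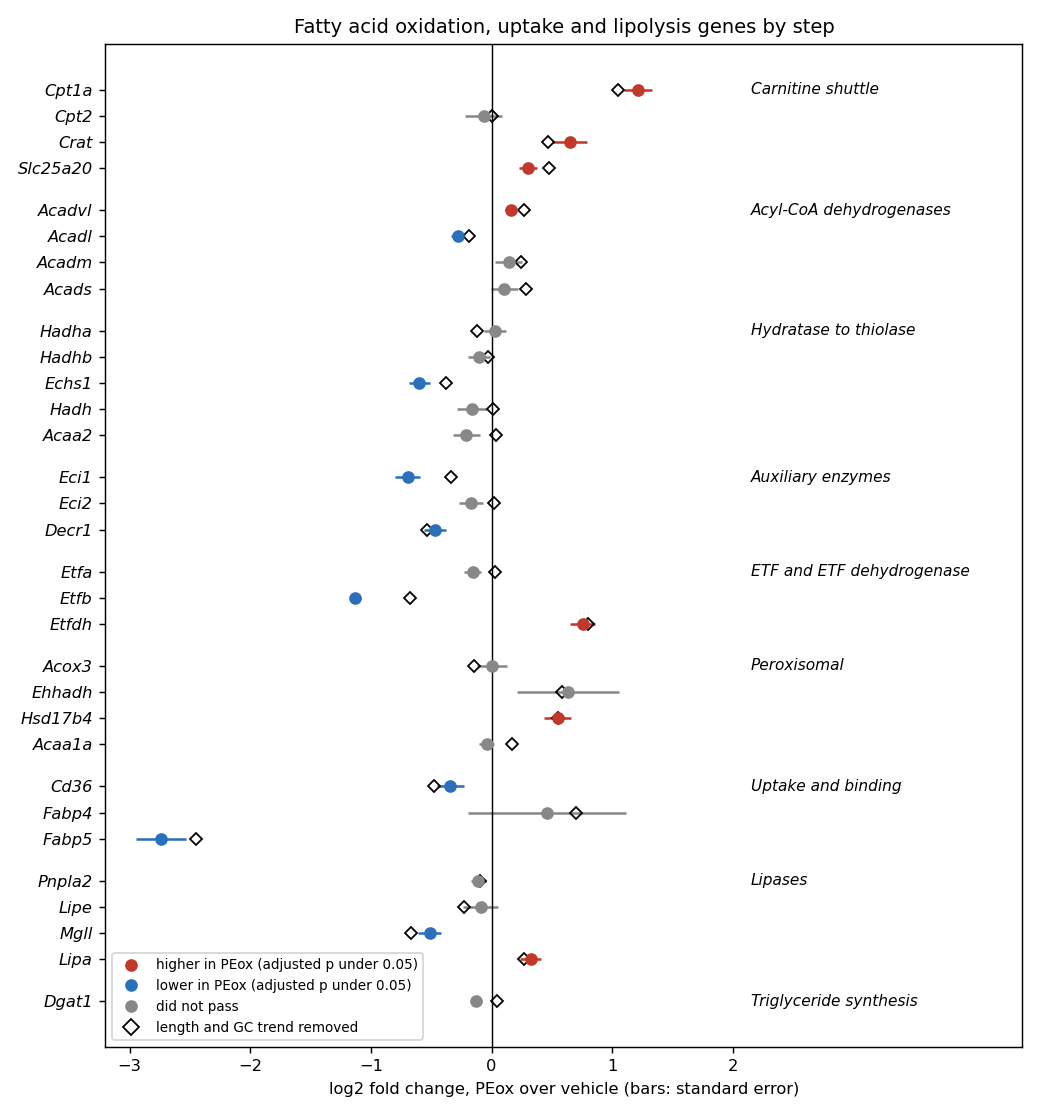
Log2 fold change, PEox over Vehicle, with its standard error for the 31 genes, grouped by enzyme step; colours mark the edgeR call and open diamonds mark the value after the trend on transcript length and GC content was removed. Fabp5 at -2.74, Etfb at -1.13 and Cpt1a at 1.21 lie farthest from 0.

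Of the 4 genes of the carnitine shuttle 3 were higher in PEox. Cpt1a encodes the liver-type carnitine palmitoyltransferase of the outer mitochondrial membrane, the rate-controlling step of fatty acid entry. Its level was 120.9, 133.9 and 118.5 CPM in the PEox libraries and 44.9, 53.5 and 62.5 CPM in the Vehicle libraries. The groups did not overlap, and Cpt1a was 2.32-fold higher in PEox (log2 fold change 1.21 ± 0.12, edgeR adjusted p = 0.000116). Crat, the carnitine acetyltransferase that moves short acyl groups between CoA and carnitine, had 57.5, 51.2 and 45.6 CPM in PEox and 39.5, 31.7 and 27.3 CPM in Vehicle (0.65 ± 0.15, edgeR adjusted p = 0.00977). Slc25a20, the carnitine-acylcarnitine translocase of the inner membrane, had 66.9, 70.3 and 68.6 CPM in PEox and 52.0, 58.3 and 56.4 CPM in Vehicle (0.30 ± 0.07, edgeR adjusted p = 0.0116). Both were higher in every PEox library than in any Vehicle library. Cpt2, which turns acylcarnitine back into acyl-CoA in the matrix, stood apart from them with 28.4 ± 5.55 CPM in PEox and 29.8 ± 2.42 CPM in Vehicle (-0.07 ± 0.15, edgeR adjusted p = 0.79). The ratio of Cpt1a to Cpt2 CPM was 3.60, 4.59 and 5.25 in PEox and 1.52, 1.66 and 2.28 in Vehicle. After the trend on length and GC content was removed, Crat no longer passed (0.47, edgeR adjusted p = 0.056) and Slc25a20 was farther above Vehicle (0.47, edgeR adjusted p = 0.00173).

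The 250 bases before the RefSeq start of the shuttle genes that have a window (build GRCm38.p6) are printed to set beside each other 2 genes of this step that were higher, Cpt1a and Slc25a20, and Cpt2, which did not pass. They run 5′ to 3′ on the gene's strand, and capitals mark any match to the motifs named after them.
Cpt1a, chr19:3323051-3323300, + strand: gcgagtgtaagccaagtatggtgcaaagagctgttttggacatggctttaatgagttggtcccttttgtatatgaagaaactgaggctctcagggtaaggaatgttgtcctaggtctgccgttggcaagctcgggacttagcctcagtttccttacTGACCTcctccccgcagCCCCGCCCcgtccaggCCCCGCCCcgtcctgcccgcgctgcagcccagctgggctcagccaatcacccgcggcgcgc
Slc25a20, chr9:108661886-108662135, + strand: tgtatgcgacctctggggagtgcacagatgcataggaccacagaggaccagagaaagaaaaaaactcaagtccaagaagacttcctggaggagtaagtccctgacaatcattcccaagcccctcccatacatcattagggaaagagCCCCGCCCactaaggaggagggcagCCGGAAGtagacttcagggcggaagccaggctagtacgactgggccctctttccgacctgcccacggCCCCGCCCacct
Cpt2, chr4:107923590-107923839, - strand: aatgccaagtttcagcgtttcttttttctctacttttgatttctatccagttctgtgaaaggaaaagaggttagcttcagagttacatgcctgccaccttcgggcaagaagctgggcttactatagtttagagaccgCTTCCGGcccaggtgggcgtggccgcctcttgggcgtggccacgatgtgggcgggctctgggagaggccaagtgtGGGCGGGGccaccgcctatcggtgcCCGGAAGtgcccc
The motifs were searched on both strands in 300-base windows, of which these 250 bases are the part before the start: AGGTCA (the PPAR half-site), AGGTCA given 2 times with 1 base between (the PPAR and RXR direct repeat, which contains the half-site), TGACNNNGC (the antioxidant element), CACGTG (the E-box), TGACGTCA (the CRE), CCGGAAG (ETS) and GGGCGGGG (the GC box). Cpt1a holds an AGGTCA match on the minus strand and 2 GC boxes, Slc25a20 an ETS match and 2 GC boxes, and Cpt2, which did not pass the test, 2 ETS matches and a GC box. Windows were found for 24 of the 31 genes, with 2 windows each for Lipe and Mgll. A gene of the module was counted if any of its windows matched, whereas the shares set beside it are of single windows. Those windows were not matched to the module for GC content or expression, and the part of either in the shares was not tested. GC boxes occurred in 14 of the 24 genes (58.3%), against 17.6% of 32851 windows of all genes. AGGTCA occurred in 5 (20.8%, Acadm, Acadvl, Cd36, Cpt1a and Echs1), against 16.3% of all windows, and the direct repeat in 0, against 0.0396%. The ETS motif was in 3 (12.5%, against 8.86%), the E-box in 2 (8.33%, Lipe and Mgll, against 7.15%), the antioxidant element in 1 (4.17%, Ehhadh, against 12.4%) and the CRE in 0, against 1.79%. A match is a description of letters and not of a bound site.

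**Figure D2:**
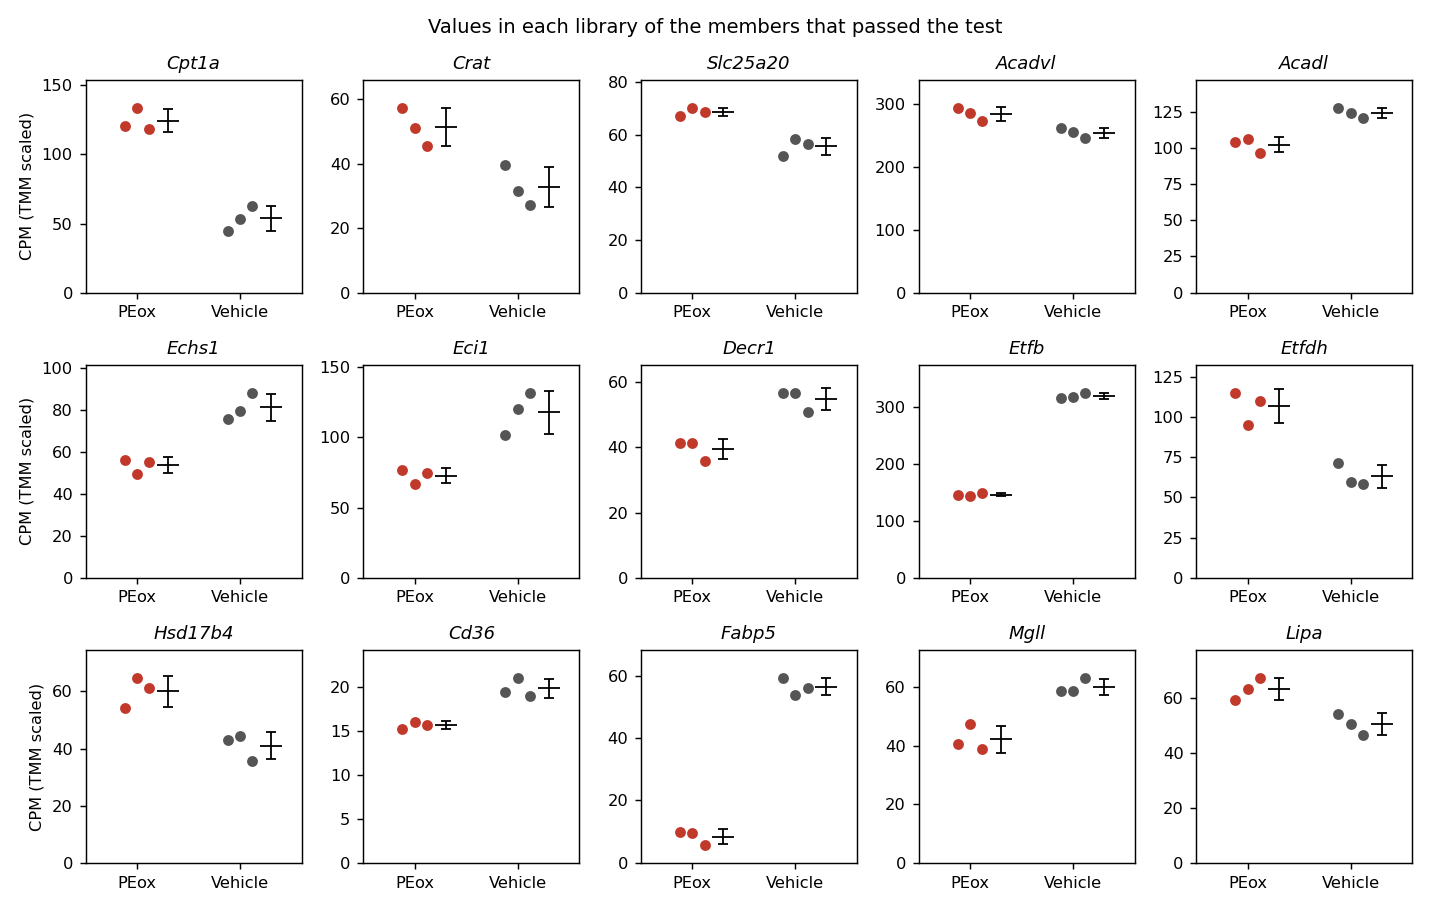
CPM of each library (points) with the mean and SD (bars, n = 3) for the 15 genes that passed the test, PEox left of Vehicle, on linear axes that start at 0. In all 15 the groups do not overlap, and Fabp5 lies between 5.68 and 9.97 CPM in PEox and between 53.9 and 59.3 CPM in Vehicle.

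The acyl-CoA dehydrogenases open each turn of the cycle on chains of different length, and of these 4 genes 1 was higher, 1 was lower and 2 did not pass. Acadvl, the very-long-chain enzyme, had 294.0, 285.1 and 271.9 CPM in PEox and 261.4, 254.7 and 245.0 CPM in Vehicle (0.16 ± 0.05, edgeR adjusted p = 0.0346). Acadl, the long-chain enzyme, had 103.8, 106.4 and 96.8 CPM in PEox and 128.0, 124.0 and 120.9 CPM in Vehicle (-0.28 ± 0.06, edgeR adjusted p = 0.00693). In both genes the groups did not overlap, in opposite directions. Acadm, the medium-chain enzyme, averaged 67.8 ± 7.02 CPM in PEox and 61.5 ± 7.20 CPM in Vehicle, and Acads, the short-chain enzyme, 48.9 ± 5.65 CPM in PEox and 45.4 ± 3.78 CPM in Vehicle. Neither passed (0.14 ± 0.11 and 0.11 ± 0.11, edgeR adjusted p = 0.379 and 0.508). The call of Acadvl was lost without PEox replicate 1 (edgeR adjusted p = 0.124), PEox replicate 2 (0.103), Vehicle replicate 1 (0.0503), Vehicle replicate 2 (0.0903) or Vehicle replicate 3 (0.116). After trend removal Acadvl was at 0.27 (edgeR adjusted p = 0.00265). Acadvl shares 42.9% of its exon bases with Dvl2 on the opposite strand, and no source says whether counting used strand. Dvl2 had 4445 counts over all libraries, against 97128 for Acadvl. Acadl did not pass with library size scaling (-0.14, edgeR adjusted p = 0.0898).

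Most enzymes that complete the cycle did not pass the test. Echs1, the short-chain enoyl-CoA hydratase, was the exception, with 56.4, 49.4 and 55.2 CPM in PEox and 75.7, 79.8 and 88.3 CPM in Vehicle (-0.60 ± 0.09, edgeR adjusted p = 0.00092). After removal of the length and GC trend it was -0.38 (edgeR adjusted p = 0.0112). Every PEox library lay below every Vehicle library. Hadha and Hadhb, the alpha and beta subunits of the trifunctional protein that acts on long chains, averaged 108.7 ± 8.48 and 127.4 ± 11.02 CPM in PEox, against 106.5 ± 11.4 and 137.0 ± 14.1 CPM in Vehicle (0.03 ± 0.09 and -0.10 ± 0.09, edgeR adjusted p = 0.848 and 0.439). Hadh, the hydroxyacyl-CoA dehydrogenase of shorter chains, averaged 40.7 ± 6.76 CPM in PEox and 45.5 ± 1.71 CPM in Vehicle (-0.16 ± 0.13, edgeR adjusted p = 0.382). Acaa2, the mitochondrial thiolase, averaged 104.1 ± 16.8 CPM in PEox and 120.3 ± 4.31 CPM in Vehicle (-0.21 ± 0.11, edgeR adjusted p = 0.195). The groups of all 4 of these genes overlapped.

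Hadha and Hadhb lie head to head, with 272 bases between their RefSeq starts, so their 250-base upstream windows share 228 bases. The window of Hadhb is printed because all of it also lies before the start of Hadha. Capitals mark a GC box near the start of Hadhb. The 250-base window of Hadha ends inside this box, so no match was found there. This is an effect of the window edge and not a difference between the promoters.
Hadhb, chr5:30155003-30155252, + strand: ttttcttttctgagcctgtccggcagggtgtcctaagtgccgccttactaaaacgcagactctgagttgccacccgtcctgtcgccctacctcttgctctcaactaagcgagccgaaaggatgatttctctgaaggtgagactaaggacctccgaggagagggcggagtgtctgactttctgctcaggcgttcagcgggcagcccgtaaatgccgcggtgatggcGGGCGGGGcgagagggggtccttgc
The ratio of Hadha to Hadhb CPM was 0.829, 0.938 and 0.798 in PEox and 0.727, 0.844 and 0.764 in Vehicle, ranges that overlap. Gm13910, a processed pseudogene 99.8% identical to Hadhb over 69.7% of its transcript, had 15562 counts over all libraries, against 47865 for Hadhb. The authors' counting could split reads between them, so Hadhb is uncertain. Summed with Gm13910, Hadhb had 168.3 ± 15.2 CPM in PEox and 182.2 ± 21.7 CPM in Vehicle (-0.11 ± 0.10, edgeR adjusted p = 0.426).

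The auxiliary enzymes, which make unsaturated fatty acids fit for the cycle, were lower as far as they changed. Eci1, an enoyl-CoA isomerase of mitochondria, had 76.7, 66.9 and 74.96 CPM in PEox and 101.5, 120.3 and 131.9 CPM in Vehicle (-0.69 ± 0.10, edgeR adjusted p = 0.00107). After removal of the length and GC trend it was -0.34 (edgeR adjusted p = 0.035). Decr1, the dienoyl-CoA reductase, had 41.4, 41.5 and 35.9 CPM in PEox and 56.8, 56.8 and 51.0 CPM in Vehicle (-0.47 ± 0.09, edgeR adjusted p = 0.00447). All PEox libraries lay below all Vehicle libraries in both genes. Eci2, the second isomerase, averaged 40.5 ± 2.83 CPM in PEox and 45.6 ± 3.67 CPM in Vehicle and did not pass (-0.17 ± 0.10, edgeR adjusted p = 0.218). The summed level of the 3 genes was 152.9 ± 4.63 CPM in PEox and 218.4 ± 12.3 CPM in Vehicle.

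Of the 3 genes that carry electrons to ubiquinone, Etfb was lower, Etfdh was higher and Etfa did not pass. Etfb encodes the beta subunit of the flavoprotein, and its level was 146.3, 143.8 and 148.8 CPM in PEox and 316.0, 317.3 and 325.8 CPM in Vehicle. The spread within each group was narrow, and Etfb was 2.19-fold lower in PEox (-1.13 ± 0.04, edgeR adjusted p = 1.48e-06). Etfdh, the membrane enzyme that passes electrons from the flavoprotein to ubiquinone, had 115.3, 94.8 and 110.3 CPM in PEox and 71.3, 59.9 and 58.4 CPM in Vehicle (0.76 ± 0.10, edgeR adjusted p = 0.000709). Here every PEox library lay above every Vehicle library. Etfa, the alpha subunit, had 133.5, 112.8 and 123.2 CPM in PEox and 139.0, 137.5 and 135.1 CPM in Vehicle. These groups did not overlap either, but Etfa did not pass (-0.16 ± 0.07, edgeR adjusted p = 0.121), except without PEox replicate 1 (-0.22, edgeR adjusted p = 0.0376). The ratio of Etfa to Etfb CPM was 0.912, 0.785 and 0.828 in PEox and 0.440, 0.433 and 0.415 in Vehicle. With the trend on length and GC content removed, Etfb was less far below Vehicle and still passed (-0.67, edgeR adjusted p = 4.31e-05). Etfb shares 53% of its exon bases with Gm45233 on the same strand, which had 0 counts over all libraries, against 84720 for Etfb. No source says how the counting treated this overlap, so the level of Etfb and its ratio to Etfa are uncertain.

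Of the 4 peroxisomal genes only Hsd17b4 passed. This multifunctional enzyme, which hydrates and dehydrogenates acyl-CoA in peroxisomes, had 54.3, 64.8 and 61.1 CPM in PEox and 43.0, 44.5 and 35.6 CPM in Vehicle (0.55 ± 0.11, edgeR adjusted p = 0.00523). Every PEox library exceeded every Vehicle library. Acox3, an acyl-CoA oxidase for branched chains, averaged 35.3 ± 3.46 CPM in PEox and 35.2 ± 4.57 CPM in Vehicle (edgeR adjusted p = 0.986). Acaa1a, the peroxisomal thiolase, averaged 142.6 ± 9.94 CPM in PEox and 146.7 ± 2.43 CPM in Vehicle (-0.04 ± 0.06, edgeR adjusted p = 0.677). Reads of its near copy Acaa1b (96.6% identical, 1132 counts) and of Myd88 on the opposite strand could be counted for it, so Acaa1a is uncertain. Myd88 had 106374 counts, against 52348 for Acaa1a, and covers 6.57% of the exon bases of Acaa1a. Ehhadh, the bifunctional enzyme, was low, with 3.96, 2.91 and 8.59 CPM in PEox and 4.14, 3.47 and 2.35 CPM in Vehicle (0.63 ± 0.42, edgeR adjusted p = 0.30). PEox replicate 3 was the high library and the groups overlapped.

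Fatty acid uptake and binding held the largest change of the module. Fabp5, a cytosolic fatty acid binding protein of immune and epithelial cells, had 9.97, 9.67 and 5.68 CPM in PEox and 59.3, 53.9 and 56.1 CPM in Vehicle. It was 6.69-fold lower in PEox (-2.74 ± 0.21, edgeR adjusted p = 3.08e-05), and the groups lay far apart. Cd36, the scavenger receptor that takes up long-chain fatty acids, had 15.2, 16.1 and 15.7 CPM in PEox and 19.5, 21.1 and 19.0 CPM in Vehicle (-0.34 ± 0.11, edgeR adjusted p = 0.0423). Its call was lost when any of the 6 libraries was left out (PEox replicates 1, 2 or 3, Vehicle replicates 1, 2 or 3), with edgeR adjusted p between 0.0592 and 0.157, with the replicate block (0.0831) and with library size scaling (-0.21, edgeR adjusted p = 0.193). Fabp4, the adipocyte-type binding protein that macrophages also make, was barely expressed, at 0.572 ± 0.131 CPM in PEox and 0.415 ± 0.165 CPM in Vehicle (0.46 ± 0.65, edgeR adjusted p = 0.647). Macrophages, fat cells and vessel cells also make CD36 or these binding proteins. The sum of 16 macrophage and dendritic cell markers ran from 137 to 162 CPM in PEox and from 279 to 298 CPM in Vehicle, with Clec9a at 0, 8 of 15 tested genes lower and Lyz2 on top (50.9 CPM in PEox and 110.5 CPM in Vehicle). The sum of 12 adipocyte markers, which include Fabp4 and Lipe, ran from 22.2 to 25.9 CPM in PEox and from 26.6 to 32.1 CPM in Vehicle, with Cfd and Lep at 0, 9 under 1 CPM and Lipe on top. The sum of 12 endothelial markers was 102.3 ± 11.7 CPM in PEox and 93.5 ± 9.13 CPM in Vehicle, with Gpihbp1 at 0, 8 under 1 CPM and Pecam1 on top (92.1 CPM in PEox and 77.0 CPM in Vehicle). The part of these cells in the values of Fabp5 and Cd36 was not tested. Fabp5 has 5 processed pseudogenes that match 34% to 41.3% of its transcript, with 0 to 71 counts against 11862 for Fabp5.

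Of the 4 lipases Lipa was higher, Mgll was lower and 2 did not pass. Mgll, the monoglyceride lipase that completes triglyceride breakdown, had 40.4, 47.3 and 38.8 CPM in PEox and 58.6, 58.5 and 63.2 CPM in Vehicle (-0.51 ± 0.10, edgeR adjusted p = 0.0036). Lipa, the acid lipase of lysosomes, had 59.3, 63.4 and 67.5 CPM in PEox and 54.4, 50.8 and 46.6 CPM in Vehicle (0.32 ± 0.09, edgeR adjusted p = 0.0201). In neither gene did the groups overlap. Pnpla2, the adipose triglyceride lipase that opens lipolysis, averaged 168.0 ± 8.85 CPM in PEox and 181.2 ± 7.38 CPM in Vehicle (-0.11 ± 0.06, edgeR adjusted p = 0.198). Lipe, the hormone-sensitive lipase, averaged 13.7 ± 0.854 CPM in PEox and 14.6 ± 1.88 CPM in Vehicle (-0.09 ± 0.14, edgeR adjusted p = 0.687). The ratio of Lipa to Pnpla2 CPM was 0.377 ± 0.00487 in PEox and 0.280 ± 0.0328 in Vehicle (SD, n = 3 each). Lipa no longer passed without PEox replicate 2 (edgeR adjusted p = 0.0502), PEox replicate 3 (0.0616), Vehicle replicate 2 (0.065) or Vehicle replicate 3 (0.0759), with the replicate block (0.0519) or once the trend on length and GC was taken out (0.052).

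Dgat1, which esterifies diglyceride into triglyceride, the reverse of the lipase step, had 260.7, 274.8 and 280.8 CPM in PEox and 297.0, 299.0 and 296.2 CPM in Vehicle. The groups did not overlap, but Dgat1 missed the threshold (-0.13 ± 0.05, edgeR adjusted p = 0.0573). It passed with a filter of at least 5 CPM (0.0338), with DESeq2 (0.0362), with limma-voom (0.0446) and without PEox replicate 3 (edgeR adjusted p = 0.0462).

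Levels were set per kilobase of the longest coding transcript, to set genes beside each other. Gene counts do not show which transcripts were expressed, so the order may depend on this choice of length. Etfb was the highest gene of the module in both groups, at 164 CPM per kb in PEox and 358 CPM per kb in Vehicle. Its level is uncertain, given the overlap with Gm45233. Dgat1 followed, at 144 CPM per kb in PEox and 158 CPM per kb in Vehicle, and then Acadvl, at 131 CPM per kb in PEox and 117 CPM per kb in Vehicle. Fabp5 stood at rank 27 in PEox (8.55 CPM per kb) and rank 11 in Vehicle (57.2 CPM per kb), while Cpt1a stood at rank 15 in PEox (28.8 CPM per kb) and rank 25 in Vehicle (12.4 CPM per kb). Lipe, Ehhadh and Fabp4 were among the lowest 3 in both groups. Some neighbours in this order, such as Hadha (27.0 ± 2.11 CPM per kb) and Acads (26.1 ± 3.02 CPM per kb) in PEox, differed by less than their spread.

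**Figure D3:**
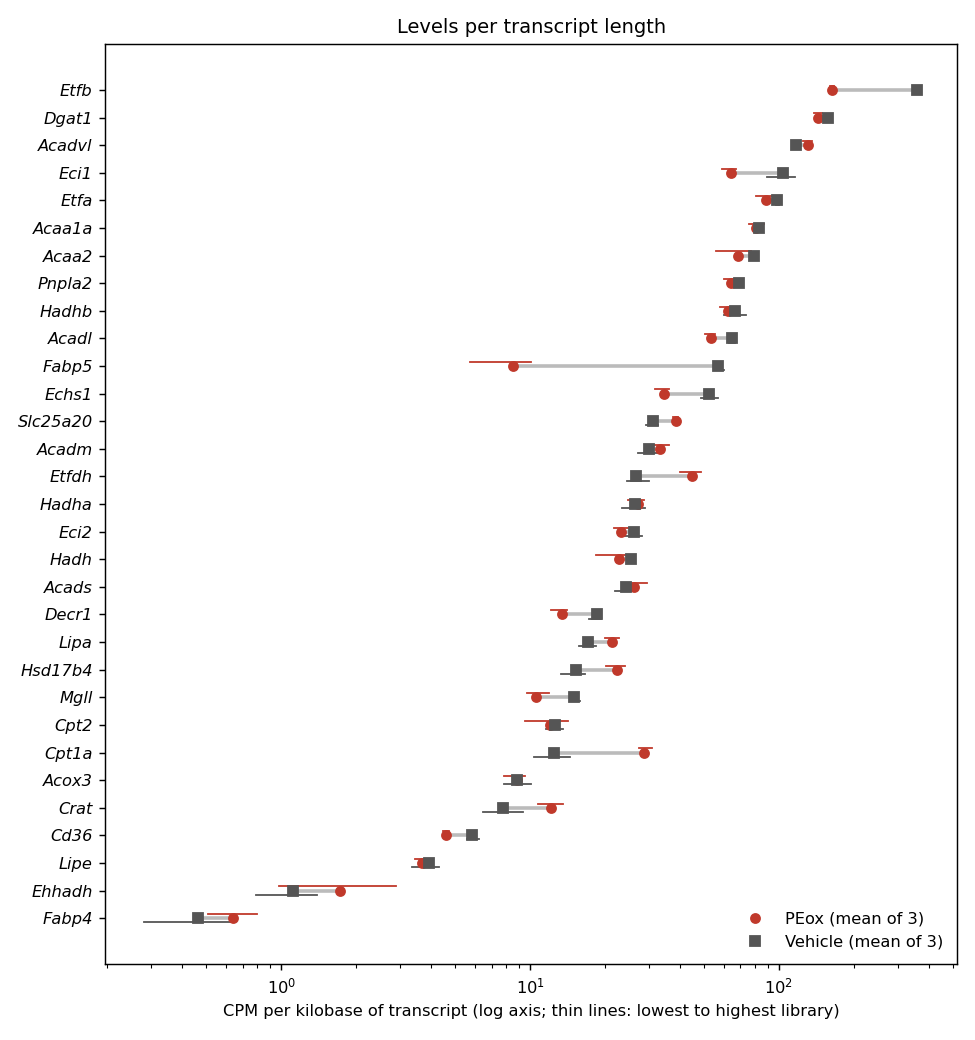
Mean level in CPM per kilobase of transcript, on a log axis, for the 31 genes in PEox (circles) and Vehicle (squares); thin lines run to the lowest and highest library. Etfb, Dgat1 and Acadvl lead in both groups, and Fabp5 and Cpt1a change place.

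Transcript length moved with the calls. The 7 higher genes had a median length of 2684 bases and the 8 lower ones 1736.5 bases, and over all genes the medians were 3813 bases for higher and 1725 bases for lower genes. Spearman's rho between log2 fold change and length was 0.455 across the 31 genes and 0.319 across 18230 tested genes, as a description, since genes share libraries. With the trend removed it was 0.125 across the module and 0.0153 across all genes. The part of length in the calls was not tested.

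**Figure D4:**
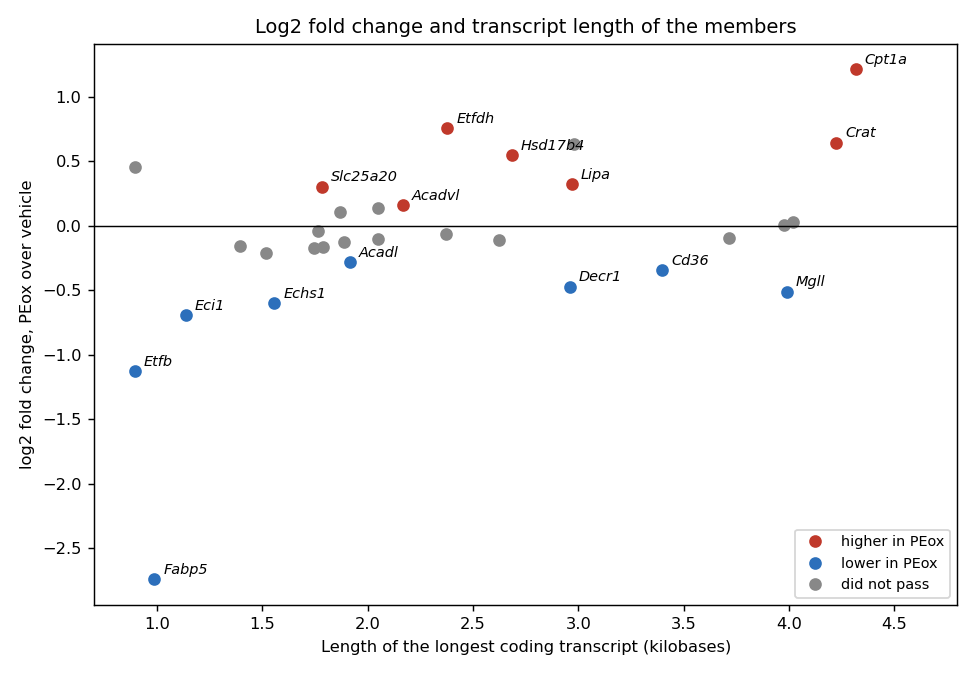
Log2 fold change, PEox over Vehicle, against the length of the longest coding transcript in kilobases for the 31 genes, coloured by the edgeR call. The higher genes have a median length of 2684 bases and the lower ones of 1736.5 bases, though Mgll, Cd36 and Decr1 are long and lower.

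The other genes of the pathway, a list of 102 genes without the module, gave more higher than lower calls. Of the 85 tested genes 29 were higher (34.1%) and 13 lower (15.3%), against 18.3% and 18.8% of all genes, with a median log2 fold change of 0.16. With library size scaling the split was 31 higher and 8 lower. Among carnitine supply and other acyltransferases 2 of 5 tested genes were higher and 1 lower. Crot, the peroxisomal carnitine octanoyltransferase, was higher at 208.2 ± 13.7 CPM in PEox and 119.4 ± 7.97 CPM in Vehicle (0.80, edgeR adjusted p = 7.32e-05). Slc25a29, a mitochondrial carrier, was lower at 2.27 ± 0.712 CPM in PEox and 4.56 ± 0.357 CPM in Vehicle (-1.005, edgeR adjusted p = 0.026). It passed in 8 of 14 alternatives and was not tested with the filter of 5 CPM in 3 libraries. Its call was lost without PEox replicate 2 (0.0595), PEox replicate 3 (0.0536), Vehicle replicate 1 (0.0897), Vehicle replicate 2 (0.062) or Vehicle replicate 3 (0.0834).

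Of 7 tested uptake genes 2 were higher and 1 lower. Slc27a1, a fatty acid transport protein with acyl-CoA synthetase activity, had 56.2, 54.2 and 65.9 CPM in PEox and 25.03, 24.3 and 24.8 CPM in Vehicle (1.25, edgeR adjusted p = 3.76e-05), with no overlap. Its relative Slc27a4 had 45.3 ± 5.88 CPM in PEox and 24.2 ± 1.92 CPM in Vehicle (0.90, edgeR adjusted p = 0.000608). These 2 genes were thus higher where Cd36 and Fabp5 were lower, but the lower uptake gene was their relative Slc27a3. Slc27a3 had under 1 CPM in both groups, at 0.0226 CPM in PEox and 0.669 CPM in Vehicle (-4.77 ± 1.31, edgeR adjusted p = 0.0214). Its counts in the PEox libraries were 4, 0 and 0, so the size of this change is uncertain.

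Of 12 tested peroxisomal genes 4 were higher and 2 lower, and of 11 further dehydrogenases and thiolases 4 were higher and 1 lower. Abcd3, a peroxisomal importer of acyl-CoA, had 34.5 ± 2.27 CPM in PEox and 14.8 ± 2.19 CPM in Vehicle (1.22, edgeR adjusted p = 0.000211). Acad11, an acyl-CoA dehydrogenase family member, had 19.2 ± 2.28 CPM in PEox and 9.58 ± 0.239 CPM in Vehicle (1.005, edgeR adjusted p = 0.000673). Acad10, of the same family, was low, at 5.85 ± 0.880 CPM in PEox and 3.15 ± 0.602 CPM in Vehicle (0.89, edgeR adjusted p = 0.0188), and lost its call without PEox replicate 1 (0.0571), Vehicle replicate 1 (0.0732) or Vehicle replicate 3 (0.0758).

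Of 15 synthetases and thioesterases 5 were higher and 4 lower. Dbi, the acyl-CoA binding protein, had 62.6 ± 3.49 CPM in PEox and 139.6 ± 4.75 CPM in Vehicle (-1.16, edgeR adjusted p = 7.8e-06). Removal of the length and GC trend brought it to -0.63. Acot7, a cytosolic acyl-CoA thioesterase, had 303.2 ± 18.3 CPM in PEox and 577.7 ± 13.3 CPM in Vehicle (-0.93, edgeR adjusted p = 8.25e-06). Of 14 lipid droplet genes 6 were higher and 1 lower, among them Lpin1, a phosphatidate phosphatase, at 36.0 ± 3.85 CPM in PEox and 19.6 ± 3.74 CPM in Vehicle (0.88, edgeR adjusted p = 0.00249), and Abhd6, a monoglyceride hydrolase, at 35.8 ± 3.44 CPM in PEox and 19.6 ± 3.18 CPM in Vehicle (0.87, edgeR adjusted p = 0.00188). Abhd6 was thus higher where Mgll, which acts on the same substrate class, was lower.

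Of 21 regulators 6 were higher and 3 lower. Ucp2, a mitochondrial carrier of the uncoupling protein family, had 527.8 ± 26.7 CPM in PEox and 997.1 ± 63.4 CPM in Vehicle (-0.92, edgeR adjusted p = 1.35e-05). Ucp3, its relative, had 11.8 ± 1.36 CPM in PEox and 25.6 ± 4.14 CPM in Vehicle (-1.11, edgeR adjusted p = 0.000803). Rxra, the nuclear receptor that pairs with PPAR factors, had 25.4 ± 6.83 CPM in PEox and 13.3 ± 2.76 CPM in Vehicle (0.93, edgeR adjusted p = 0.013), a call lost without Vehicle replicate 1 (0.0513). Ppara, the PPAR factor best known for driving oxidation genes, was too low to be tested. Ppard had 5.26 ± 1.67 CPM in PEox and 3.58 ± 0.855 CPM in Vehicle (0.56, edgeR adjusted p = 0.199). Pparg had 8.89 ± 1.39 CPM in PEox and 11.6 ± 0.428 CPM in Vehicle (-0.39, edgeR adjusted p = 0.109). Neither passed, though the groups of Pparg did not overlap.

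**Figure D5:**
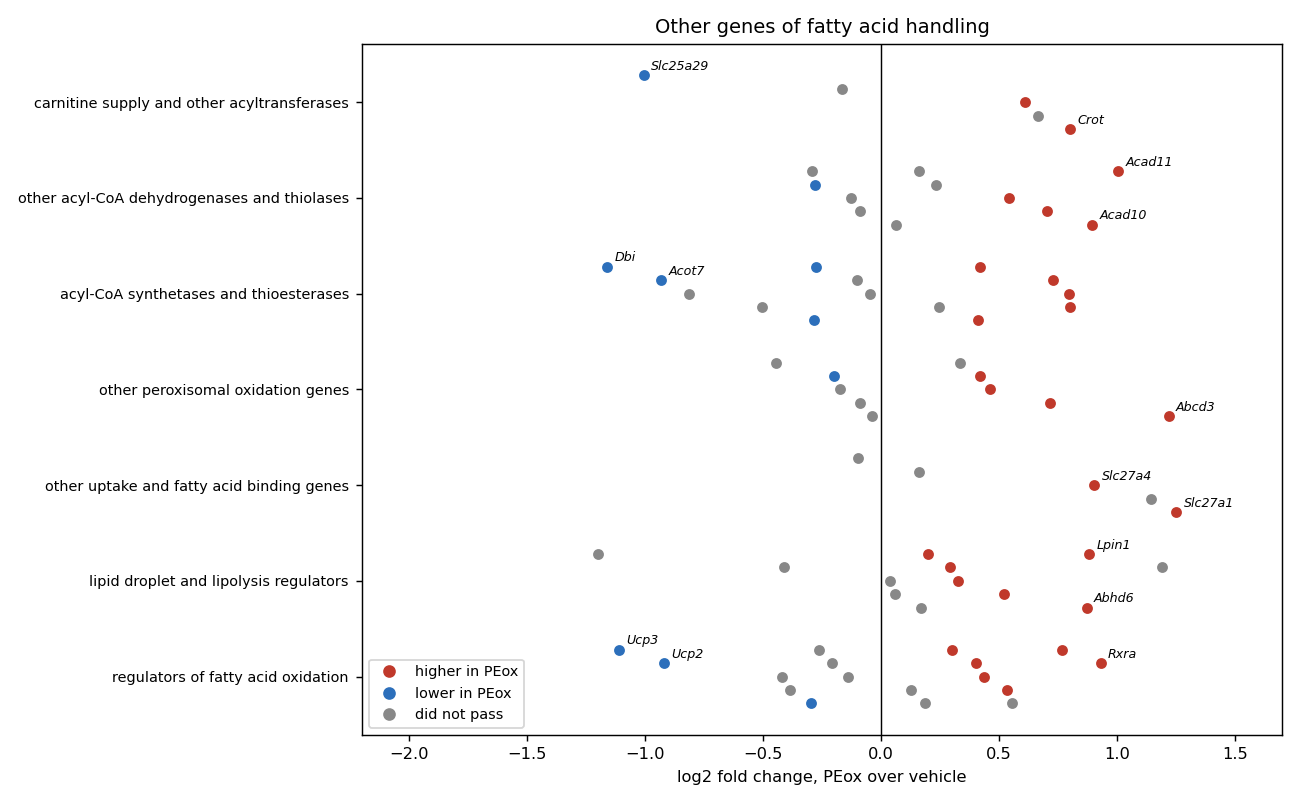
Log2 fold change, PEox over Vehicle, of the 74 tested genes of the wider list with a mean of at least 1 CPM. They are set in 7 groups and coloured by the edgeR call. Labels mark the 14 called genes with the largest absolute change. Slc27a1 at 1.25 is the highest and Dbi at -1.16 the lowest of the plotted genes that passed.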

How the data were processed

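The measurements were RNA-seq gene counts of 6 libraries, 3 PEox and 3 Vehicle. The authors deposited whole-number gene counts that were not normalized. Per the labels' protocols, a company sequenced paired reads of 150 bp on a NovaSeq instrument, fastp cleaned them and HISAT2 2.0.5 aligned them; per the submitters' processing notes edgeR 3.22.5 was also used. The read counter, build, annotation and strandedness are not given in the sources used here. Overlapping genes are therefore uncertain, and the coordinates printed are those of RefSeq promoter windows (GRCm38.p6), not of the counted features.

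Identifiers were named from a reference table (55141 of 55401; 260 had no symbol). In R 4.3.3, edgeR 4.0.16 kept 18253 genes by filterByExpr, scaled them by TMM (factors 0.951 to 1.05), and ran the robust quasi-likelihood test on treatment, with Benjamini-Hochberg adjustment over all genes at 0.05. The common BCV (biological coefficient of variation) was 34.5%. Each standard error was obtained from the log2 fold change and the root of F. A count of 3 equals 0.0472 to 0.0529 CPM, which covers counting error only. Pairs of libraries within a group differed by more than sampling noise, with a chi-square per gene of 16.5 to 38.2. Alternatives were RLE and library size scaling, no filter, a filter of 5 CPM in 3 libraries, DESeq2 1.42.0, limma-voom (limma 3.58.1), a replicate block, omission of each library, and removal of the length and GC trend by loess (span 0.5). Lengths came from the longest coding transcript of GENCODE M21. Near copies were transcripts at least 90% identical over at least 30% of the transcript. Promoter sequences are RefSeq's.

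Members, lists and alternatives were chosen with earlier results of these data known. All 31 members are named. Of the wider list the 14 called genes with the largest absolute change and a mean of at least 1 CPM are named. Ppara, Ppard, Pparg, Slc27a3, Dvl2, Myd88, Acaa1b, Gm13910 and Gm45233 were chosen after their values were seen.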

Additional observations from a re-analysis of the deposited data

How the results depend on the processing

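Of the 15 called genes 10 stayed called under all 14 alternatives (Cpt1a, Slc25a20, Etfdh, Hsd17b4, Echs1, Eci1, Decr1, Etfb, Fabp5 and Mgll), and all 15 kept their direction. Acadvl also lost its call with no filter (0.15, edgeR adjusted p = 0.0937). Removal of the length and GC trend raised Slc25a20 to 0.47 and Acadvl to 0.27. The median log2 fold change of the module, -0.09, was 0.046 under library size scaling and 0.019 after trend removal, and -0.12 to -0.03 when 1 library was left out. The wider list gave 8 lower calls without Vehicle replicate 3. With Hadhb and Gm13910 summed, an alternative chosen after the data were seen, 7 genes were higher and 8 lower.

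Changes of sign concerned genes that did not pass. With library size scaling they were Cpt2 0.071, Hadhb 0.032, Acaa1a 0.096, Pnpla2 0.028, Lipe 0.046 and Dgat1 0.0082. With the trend removed they were Cpt2 0.0018, Hadha -0.12, Hadh 0.0099, Acaa2 0.038, Eci2 0.019, Etfa 0.032, Acox3 -0.15, Acaa1a 0.17 and Dgat1 0.046. Acox3 was -0.011 with no filter and -0.0097 with the filter of 5 CPM. With 1 library left out, Hadha ran from -0.058 to 0.10, Acox3 from -0.076 to 0.11, Cpt2 from -0.20 to 0.078 and Acaa1a from -0.10 to 0.0083. The cause of these changes was not tested.

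With the replicate block, 6159 genes changed, and 6 genes of the module were higher and 7 lower. The labels do not say what the replicate numbers mark. Deviations of same-numbered libraries correlated at 0.0054, 0.0135 and -0.0058, and 3 of 6 libraries correlated best with their own number. With 3 libraries per group these values cannot decide whether the numbers pair the libraries. Fabp4 was measured at under 1 CPM in every library, and a gene that misses the threshold is not shown to be equal in both groups.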
